A study of Drosophila melanogaster with 3 samples.

Results

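The Cpr genes of Drosophila melanogaster encode cuticular proteins, most of which carry the Rebers and Riddiford (RR) domain that binds chitin. Members were every annotated gene whose FlyBase symbol is Cpr followed by a digit, so that the unrelated gene Cpr was left out. Of 70 such genes, 15 had at least 1 isoform model in adult heads, and these 15 genes had 16 of the 5980 models assembled in all. The heads came from 3-day-old flies of w1118, a white-eyed laboratory strain that the labels call wild type, which were untreated and flash-frozen. The 3 replicate samples were sequenced by FLAM-seq, a long-read method in which polyadenylated RNA is tailed and read from end to end on a PacBio instrument. The authors merged their reads before they assembled full-length isoforms, so each model stands once for all 3 samples, with no read number and no spread between samples. A model therefore says that a spliced form was found with the minimal read support set by the authors, and the lack of a model does not say that a gene was silent. Since whole heads were extracted, fewer cuticle-forming cells and less RNA per cell cannot be told apart.

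The insect cuticle is secreted by the epidermis and is built from chitin fibres embedded in protein. RR proteins carry a signal peptide that directs them out of the cell, and their RR domain holds them to chitin. Proteins of the RR-1 type have been found mostly in soft and flexible cuticle, and those of the RR-2 type mostly in hard cuticle. Many of their genes lie side by side on the chromosomes and are used in waves around each moult, so larvae, pupae and adults draw on different sets. The adult head capsule, the lenses of the eyes, the mouthparts and the foregut lining are all cuticle.

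A model was found for 21.4% of Cpr genes (15 of 70, Wilson 95% interval 13.4 to 32.4%), beside 33.4% of all annotated protein-coding genes (4651 of 13945). Such intervals cover counting error only and treat genes as independent draws, which neighbouring gene copies are not. No test was made between these shares. Of Cpr genes with an annotated transcript under 1000 nt, 18.2% had a model (8 of 44, interval 9.51 to 32.0%), beside 37% of all protein-coding genes with such a transcript (1489 of 4019). Of those with no transcript under 1000 nt, 26.9% of Cpr genes (7 of 26, interval 13.7 to 46.1%) and 31.9% of all protein-coding genes had one. None of the 6 Cpr genes annotated with a single exon had a model (interval 0 to 39.0%), whereas 28.5% of single-exon protein-coding genes did. The shortest annotated transcript had a median of 904 nt in the 15 genes with a model and 817 nt in the 55 without, beside 1520 nt over all protein-coding genes. Of 4 epidermal markers, only ple, the tyrosine hydroxylase of the dopamine pathway, had a model. Reads from whole heads do not show that the ple model came from the epidermis. The chitin synthase gene kkv, the cuticle assembly gene knk and the epidermal regulator grh had none, and their shortest annotated transcripts were 2674 to 5457 nt long. That of ple was 2911 nt long, which is longer than that of knk at 2674 nt. Markers of other head tissues had models in 2 of 4 cases for photoreceptors (ninaE and Arr2), 2 of 4 for glia (Gs2 and Eaat1), 1 of 4 for neurons (nSyb), 4 of 5 for the fat body (Yp1, Yp2, Yp3 and Lsp2) and 2 of 3 for muscle (up and Act88F), while none of 3 germline markers had any. How these cell types or the length of a transcript bear on the Cpr share was not tested.

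**Figure D1:**
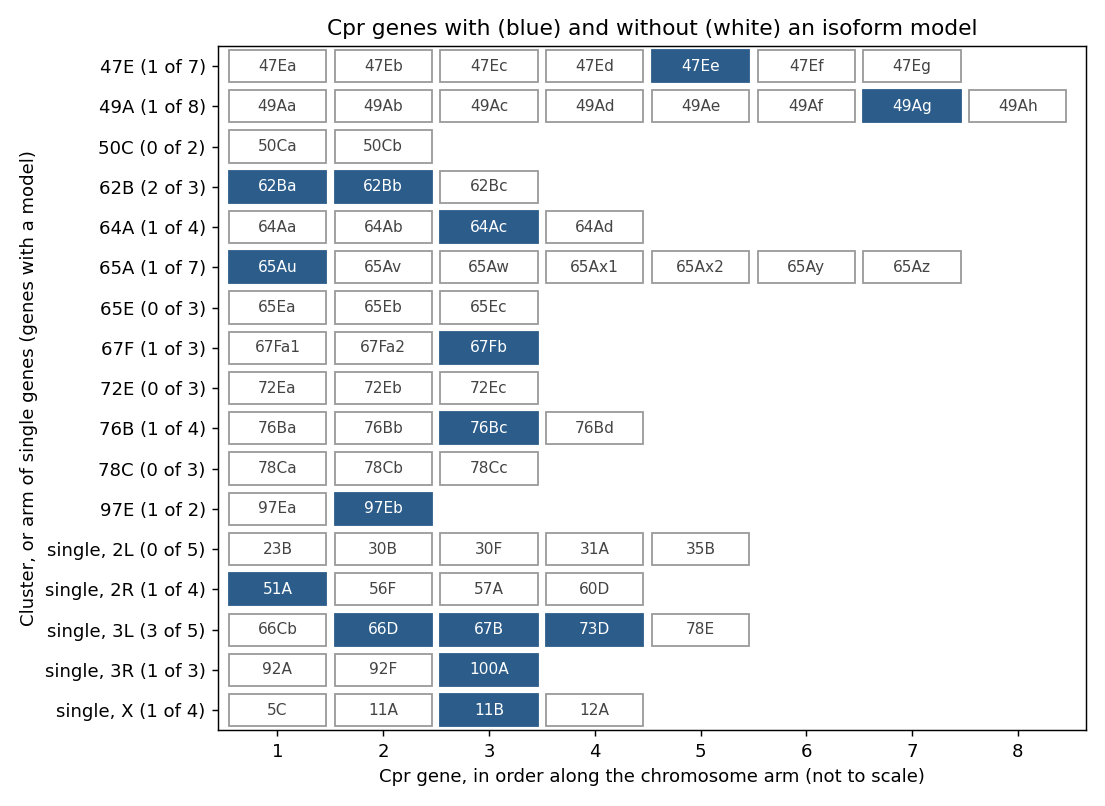
Cpr genes by genomic cluster, 1 box per gene in order along the arm, filled where the gene had at least 1 isoform model; the lower rows hold genes with no Cpr neighbour within 20 kb. Filled boxes are spread over 8 of the 12 clusters, and only cluster 62B has more than 1.

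The 15 genes were spread thinly over the loci. With neighbours joined when they lay at most 20 kb apart, 49 Cpr genes fell into 12 clusters and 21 stood alone. Clustered genes had a model in 9 of 49 cases (18.4%, interval 9.98 to 31.4%) and single genes in 6 of 21 (28.6%, interval 13.8 to 49.96%), so the intervals overlapped. In 7 clusters exactly 1 gene had a model: Cpr47Ee of 7 genes at 47E, Cpr49Ag of 8 at 49A, Cpr64Ac of 4 at 64A, Cpr65Au of 7 at 65A, Cpr67Fb of 3 at 67F, Cpr76Bc of 4 at 76B and Cpr97Eb of 2 at 97E. Cluster 62B was the exception, with models of Cpr62Ba and its neighbour Cpr62Bb and none of Cpr62Bc. The clusters 50C, 65E, 72E and 78C, which hold 2, 3, 3 and 3 genes, had none. The single genes with a model were Cpr51A, Cpr66D, Cpr67B, Cpr73D, Cpr100A and Cpr11B. By chromosome arm, a model was found for 9 of 35 Cpr genes on 3L (25.7%), 3 of 21 on 2R (14.3%), 2 of 5 on 3R (40%), 1 of 4 on X (25%) and 0 of 5 on 2L. The share of all protein-coding genes was 32.9% on 3L, 35.7% on 2R, 35.8% on 3R, 25.7% on X and 34.2% on 2L. The 65A cluster spans 30348 nt and also holds 9 larval cuticle genes of the Lcp65A group and the adult cuticle gene Acp65Aa. Acp65Aa had a model of 614 nt with 2 exons, and the 9 Lcp65A genes had none. At 67F, Cpr67Fa1 and Cpr67Fa2 had coding sequences 96.5% identical, and at 65A those of Cpr65Ax1 and Cpr65Ax2 were 100% identical. These 4 genes had no model, and how reads of such pairs were placed was not tested. For the 15 genes with a model, the closest other Cpr coding sequence was 50.7 to 61.2% identical. The median was 53.5%, beside 55.8% for the 55 genes without a model. Identity was the share of the longer of 2 coding sequences left unchanged by single-base edits in an end-to-end alignment. What unrelated coding sequences score on it was not measured, so the lower values do not show relatedness.

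Cpr models were compact. Their median length was 914 nt (quartiles 792 and 1172 nt), beside 1487 nt over all 5980 models (996 and 2061 nt) and 1181 nt over models with 2 or 3 exons. The shortest was that of Cpr67Fb at 456 nt and the longest that of Cpr73D at 2157 nt. Of the 16 models, 8 had 2 exons, 5 had 3, 1 had 4 and 2 had 5, so that 81.3% had 2 or 3 exons, beside 40.4% of all models. No Cpr model had a single exon, beside 14.3% of all models. The coding part differed most, with a median of 589.5 nt in Cpr models and 1011 nt in all models whose coding sequence could be placed. The untranslated regions (UTRs) differed less, with medians of 116 and 121 nt for the 5′ UTR and 176 and 208 nt for the 3′ UTR. Models with 2 or 3 exons had medians of 783 coding nt, 97 nt for the 5′ UTR and 164 nt for the 3′ UTR. Beside these, the Cpr median was lower for the coding part and higher for both UTRs. First introns had a median of 282.5 nt in Cpr models, 138.5 nt in all models and 72 nt in models with 2 or 3 exons. Those of Cpr models ranged from 62 nt in Cpr64Ac to 3608 nt in Cpr62Ba. Of 26 distinct introns in Cpr models, 7 were at most 80 nt long (26.9%), beside 55% of all distinct introns, and 3 were 2000 nt or longer (11.5%), beside 8.94%. The 3 long ones were in Cpr51A, Cpr62Ba and Cpr76Bc.

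**Figure D2:**
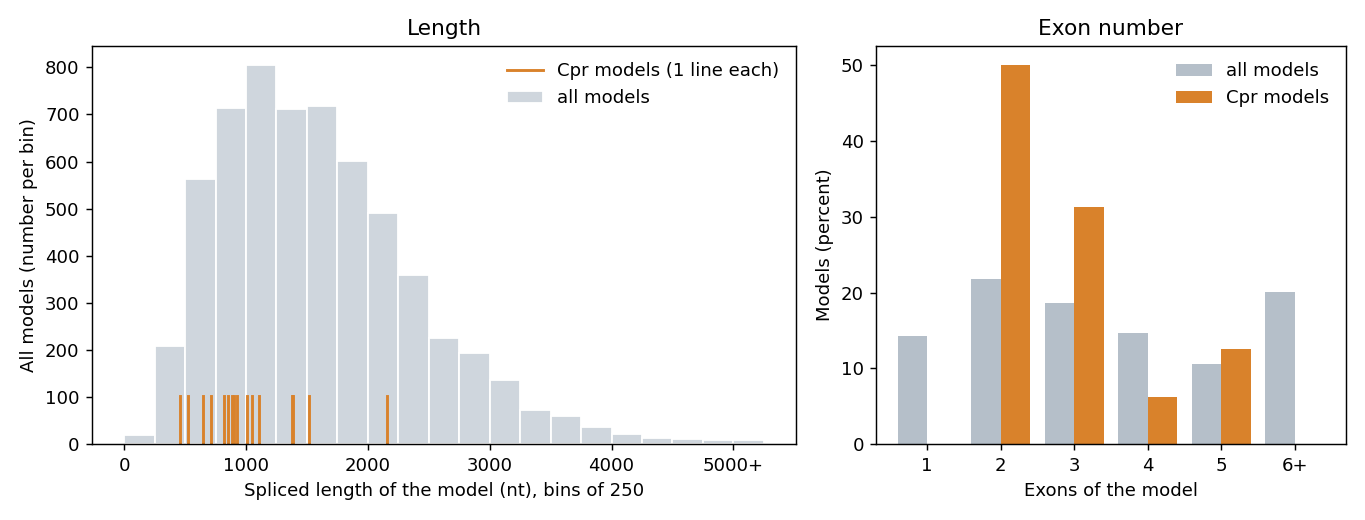
Left, spliced length in nt of all 5980 models as bars of 250 nt, with 1 orange line per Cpr model; right, percent of models by exon number for all models and for the 16 Cpr models. The Cpr lines run from 456 to 2157 nt, and 50% of Cpr models have 2 exons.

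**Figure D3:**
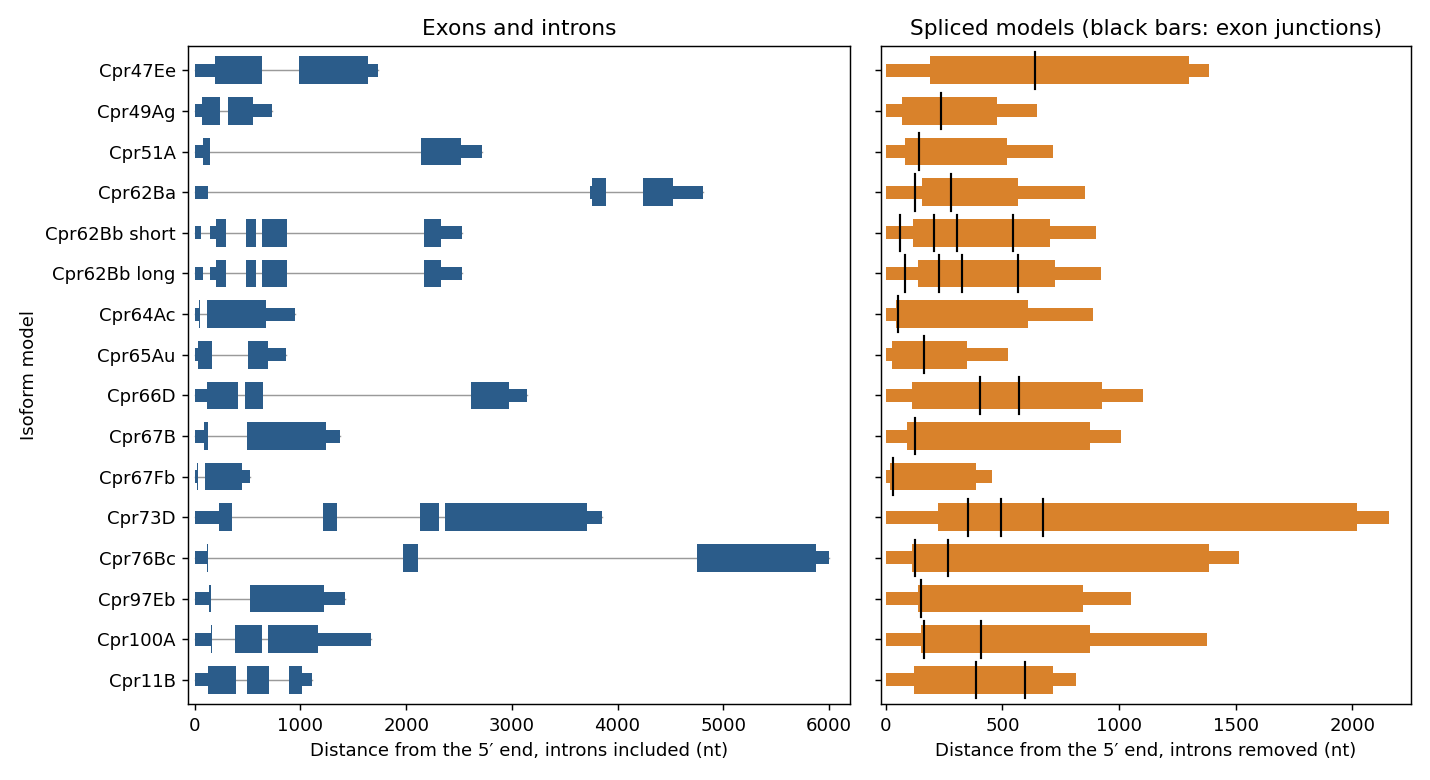
The 16 Cpr models by distance in nt from their 5′ end, with introns drawn to scale on the left and removed on the right; thick bars are coding sequence, thin bars UTRs, and black bars exon junctions. Cpr64Ac, Cpr67Fb, Cpr76Bc, Cpr97Eb and Cpr100A carry only a sliver of coding sequence before the first junction.

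In 5 models, of Cpr64Ac, Cpr67Fb, Cpr76Bc, Cpr97Eb and Cpr100A, the coding sequence was interrupted after 12 nt, that is after the start codon and 3 further codons, so that nearly all of the protein was encoded downstream of the first intron. The genomic sequences from the start codon across this splice site are shown to make that break visible, with the 12 coding bases in capitals and the first intron bases in lower case. They were read from the RefSeq genome of the same build as the models (dm6), on the strand of each gene. Cpr64Ac, Cpr67Fb and Cpr76Bc lie at chr3L:4212844-4212873 (minus strand), chr3L:10894191-10894220 (plus strand) and chr3L:19521380-19521409 (plus strand), and Cpr97Eb and Cpr100A at chr3R:27090962-27090991 (minus strand) and chr3R:30867672-30867701 (plus strand).
Cpr64Ac: ATGATTGCCCAGgtgagttggccaaaggag
Cpr67Fb: ATGATCAAGACCgtaagtccgatgcgataa
Cpr76Bc: ATGCGGTTCTATgtaagtgctgactaaata
Cpr97Eb: ATGTTGAAATTGgtaagattcagcaaggtg
Cpr100A: ATGTTCAGATTTgtgagttgtgttttattc

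Apart from this break the 5 models differed widely. Cpr67Fb (FBgn0036110, chr3L:10894174-10894693) was the smallest, with 456 nt in 2 exons around a 64-nt intron, a 5′ UTR of 17 nt, 369 coding nt and a 3′ UTR of 70 nt. Cpr64Ac (FBgn0035512, chr3L:4211965-4212915) had 889 nt in 2 exons, an intron of 62 nt and a 3′ UTR of 280 nt. In Cpr97Eb (FBgn0039481, chr3R:27089705-27091130) the only intron was 373 nt long, and the model had 1053 nt with 708 coding nt. The remaining pair had 3 exons each and differed in intron length. Cpr76Bc (FBgn0036880, chr3L:19521268-19527272) had 1515 nt in 3 exons, separated by introns of 1845 and 2645 nt, and a coding part of 1275 nt. Cpr100A (FBgn0039805, chr3R:30867522-30869184) had 1377 nt in 3 exons with introns of 223 and 63 nt and the longest 3′ UTR of the 16 models, at 501 nt.

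This early break was common in the whole family, with or without a model. Among the 64 Cpr genes with a coding intron, it followed exactly 12 coding nt in 27 (42.2%, interval 30.9 to 54.4%), beside 1.34% of protein-coding genes with a coding intron. It did so in 5 of 15 genes with a model and in 22 of 49 without. The value of 12 nt was taken from these same genes and was not planned, so these shares only describe them. A limit of 30 coding nt took in 43 of the 64 genes, beside 11.5% of protein-coding genes, with 5 of 15 genes with a model (33.3%, interval 15.2 to 58.3%) and 38 of 49 without (77.6%, interval 64.1 to 87.0%). Those 2 intervals did not overlap, but genes of 1 cluster are not independent and no test was made over genes. The position of the first coding intron was also a measure added after the data were seen. For genes with a model the transcript of that model was read, and for the others the transcript with the longest coding sequence. Over models rather than genes, 5 of 16 Cpr models broke after exactly 12 coding nt, beside 0.755% of all models with a coding intron. When non-coding first exons were counted too, 8 of 16 Cpr models (50%) had at most 30 coding nt in the first exon, beside 40.3% of all multi-exon models with a placed coding sequence. In 12 of the 16 models the first coding intron lay between codons (75%, interval 50.5 to 89.8%), beside 43.1% of all models.

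**Figure D4:**
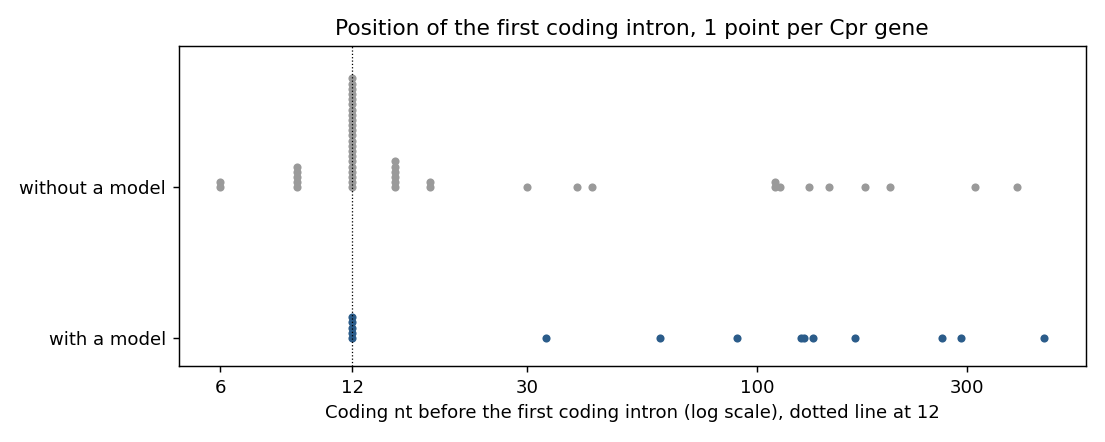
Coding nt before the first coding intron on a log axis, 1 point per Cpr gene, for the 15 genes with and the 49 genes without a model that have such an intron; equal values are stacked. The largest stack in each row stands at 12 nt, with 5 and 22 genes.

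In the other genes with a model on 3L and X, the first coding intron came later, after 33 to 291 coding nt. Cpr67B (FBgn0035985, chr3L:9404798-9406174) came closest, with 33 coding nt before an intron of 368 nt in a model of 1009 nt. Cpr66D (FBgn0052029, chr3L:8640440-8643584) had 3 exons and 1103 nt, with introns of 69 and 1973 nt, and Cpr11B (FBgn0030398, chrX:12553125-12554235), the only one on X, had 3 exons and 817 nt with introns of 111 and 183 nt. Before the first intron these 2 genes had 291 and 263 coding nt. Cpr73D (FBgn0036680, chr3L:16939101-16942949) was the largest, with 4 exons, 2157 nt and 1794 coding nt. Its last intron was 52 nt long and was the only one of the 29 introns in the 16 models that did not begin with GT and end with AG: it began with GC.

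The 2 neighbours at 62B each had a non-coding first exon. Cpr62Ba (FBgn0035279, chr3L:1824130-1828942) had 855 nt in 3 exons, a first intron of 3608 nt within the 5′ UTR and a second of 350 nt. Cpr62Bb (FBgn0035280, chr3L:1832637-1835164) was the only Cpr gene with 2 models, of 903 and 925 nt, each with 5 exons and the same 585 coding nt. Their 5′ UTRs had 118 and 140 nt.

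Cpr65Au (FBgn0042119, chr3L:6131243-6132109), the first gene of the 65A cluster, had a model of 525 nt with 2 exons around an intron of 342 nt, a 5′ UTR of 28 nt and a 3′ UTR of 176 nt. A second model with no gene name lay over the same place, at chr3L:6131243-6132134. It was a single exon of 892 nt that ran through the 342-nt intron, ended at the 3′ end of the Cpr65Au model and began 25 nt upstream of it. It was recorded on the opposite strand, as were 98.4% of single-exon models of annotated genes (673 of 684), so its recorded strand says little. Read on the strand of Cpr65Au, its last 50 nt held AATAAA or ATTAAA, and on the recorded strand they held neither. The 15 genes have 22 annotated transcripts, of which 16 had a model, and 6 genes have more than 1. In Cpr62Ba, Cpr73D and Cpr76Bc the model used the downstream of 2 annotated starts, which lay 2841, 14740 and 322 nt below the other. Only Cpr62Bb had more than 1 model, so only there could 3′ ends differ between models of a Cpr gene. Its models had the same 3′ end.

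The ends of these models cannot be read as measurements separate from the annotation. All 16 carried the name and the introns of an annotated transcript, all 16 had its 5′ end and 14 had both of its ends, allowing for a lower coordinate that stands 1 nt above the annotated one across the file. Model lengths, UTRs and distances are printed as recorded, without a correction for this 1 nt. Over all 4080 models named after an annotated transcript, 61.6% had both of its ends. Of 1357 models named after a read, 54.6% had both ends at annotated ends of their gene. With that limit, TATAAA, the sequence of the TATA box, began 40 to 20 nt upstream of the 5′ end on the strand of the gene in 6 of 16 Cpr models (37.5%, interval 18.5 to 61.4%), beside 7.83% of all models of annotated genes. It began 32 nt upstream in Cpr49Ag, 31 in Cpr11B, 28 in Cpr66D and 26 in each of Cpr51A, Cpr97Eb and Cpr100A. These distances count from the model ends. In the plus-strand Cpr49Ag, Cpr11B, Cpr66D and Cpr100A these ends stood 1 nt downstream of the annotated start, and in Cpr51A and Cpr97Eb at it. At annotated starts alone, TATAAA was found in 37 of 70 Cpr genes (52.9%, interval 41.3 to 64.1%), in 6 of 15 with a model and in 31 of 55 without, beside 7.98% of protein-coding genes. The pentamer TCAGT, a form of the initiator, lay within 10 nt of the 5′ end in 3 of 16 models, of Cpr62Ba, Cpr67B and Cpr73D, beside 17.1% of all models. Only the strand of the gene was searched, and a match to these letters does not show that a factor binds there.

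The 30 bases from 40 to 11 nt upstream of the 5′ end are shown for the 4 models on 3L, 3R and X with TATAAA, in capitals, and for Cpr67B, whose window holds tatataag but not these 6 letters. The windows are chr3L:8640400-8640429, chr3R:27091141-27091170, chr3R:30867482-30867511, chrX:12553085-12553114 and chr3L:9404758-9404787, in the RefSeq genome of dm6. That of Cpr97Eb is on the minus strand and the others are on the plus strand.
Cpr66D: gtcgtttgccgaTATAAAagtgcaatttgg
Cpr97Eb: aatgttgactgcggTATAAAaagcgttgca
Cpr100A: gttcccgctcggacTATAAAaagcttgggc
Cpr11B: tggcggggcTATAAAatcaaatcgctccag
Cpr67B: aaaagttagtatataagcagtgccttttgg

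At the 3′ ends, AATAAA or ATTAAA, the main poly(A) signals, stood within the last 50 nt of 12 of 16 Cpr models (75%, interval 50.5 to 89.8%), beside 66.9% of all models. In the last 30 nt they stood in 7 of 16 (43.8%, interval 23.1 to 66.8%), beside 54.2% of all models, so both intervals included the background. Their first base lay between 6 nt upstream of the 3′ end, in Cpr65Au, and 38 nt, in Cpr62Ba. In both genes the model end stood 1 nt upstream of the nearest annotated end. Cpr66D held only ATTAAA. The models of Cpr47Ee, Cpr51A, Cpr73D and Cpr100A held neither. Cpr51A and Cpr65Au were the 2 models that ended beyond the transcript they were named after. The Cpr51A model ran 65 nt past the annotated end, which has AATAAA 21 nt upstream. The Cpr65Au model ran 72 nt past its own transcript, to the end of the other annotated transcript of the gene. The last 30 bases are shown for models with signals at different distances and for Cpr100A, which has none, with the signal in capitals. They are chr3L:6131243-6131272 on the minus strand, and chr3L:8643555-8643584, chr3L:19527243-19527272 and chr3R:30869155-30869184 on the plus strand.
Cpr65Au: actggctggattattataaatatAATAAAg
Cpr66D: tcttgtttagaatattaaATTAAAagtttc
Cpr76Bc: tgatccAATAAAaaatgtctaaaaactcgc
Cpr100A: atcgagtaaaaacaatatatgaaggaaacc

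Other lists of cuticle genes were represented unevenly. RR proteins with other names, such as the larval cuticle proteins, had a model in 1 of 28 genes, Acp65Aa (3.57%, interval 0.633 to 17.7%). Tweedle proteins, another family of cuticle proteins, had one in 1 of 26, TwdlG, whose model had 2384 nt and 3 exons. Among secreted or cuticle-associated chitin-binding proteins and chitin deacetylases, 4 of 14 had a model, namely Gasp and obst-A of the obstructor family and the deacetylases serp and verm. Genes of chitin synthesis, assembly and turnover had one in 9 of 22. These were the chitinase genes Cht2 and Cht11, the chitinase-like genes Idgf1, Idgf2, Idgf3, Idgf4, Idgf5 and Idgf6, and mmy. In the same list kkv, Chs2, knk, reb, exp and the other Cht genes had none, so most of its models were of Idgf genes. Genes of tanning and pigment had one in 7 of 20, including ple, the dopa decarboxylase gene Ddc, b, yellow-b, yellow-d and yellow-e. In all, 22 of these 110 genes had a model. The intervals of the RR and Tweedle lists lay below the 33.4% of all protein-coding genes and those of the other 3 lists included it, and no test was made between lists.

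**Figure D5:**
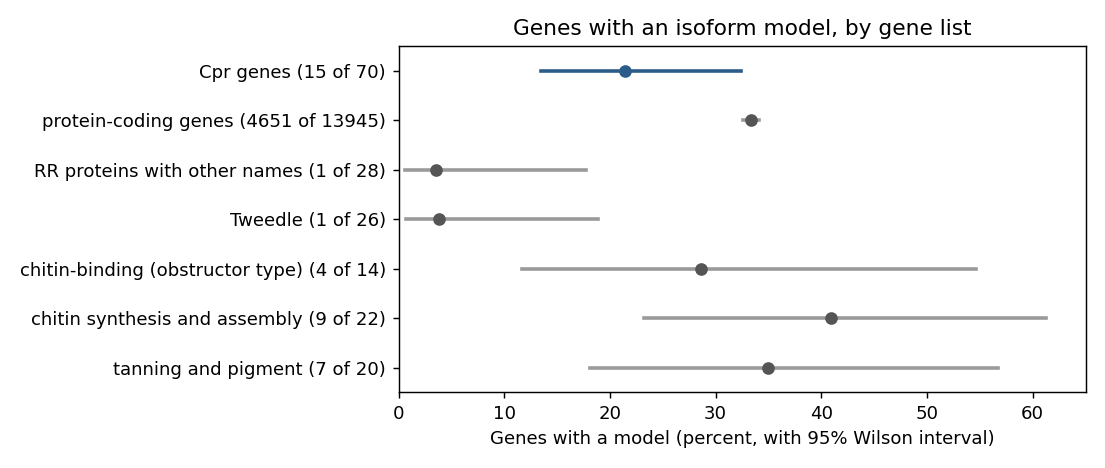
Percent of genes with an isoform model, with 95% Wilson intervals for counting error, for Cpr genes, all protein-coding genes and 5 lists of other cuticle and tanning genes. The interval of Cpr genes runs from 13.4 to 32.4%, and those of the RR proteins with other names and of the Tweedle proteins end at 17.7 and 18.9%.

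The 3 genes on 2R completed the set. Cpr47Ee (FBgn0033602, chr2R:11265127-11266856) had 1385 nt in 2 exons, with an intron of 345 nt after 450 coding nt, the latest first coding intron of the 16 models. Cpr49Ag (FBgn0033730, chr2R:12407794-12408523) had 649 nt in 2 exons, with an intron of 81 nt after 167 coding nt. Cpr51A (FBgn0033942, chr2R:14512494-14515211) had 716 nt in 2 exons, with an intron of 2002 nt after 60 coding nt. Their 3′ UTRs had 86, 174 and 198 nt.

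Proteins translated from the annotated coding sequences had a median of 197 residues in the 15 genes with a model, from 106 in Cpr65Au to 597 in Cpr73D, and of 173 residues in the 55 without. An extended RR pattern built on a tyrosine, an alanine, a glutamate, a glycine and a tyrosine at set distances matched 1 of 15 proteins with a model, Cpr67Fb, and 4 of 55 without, and its core alone matched 1 of 15 and 5 of 55. So few matches led to a second form, chosen after those counts were seen, with an aspartate after the alanine and a looser end. It matched 10 of 15 proteins with a model (66.7%, interval 41.7 to 84.8%) and 48 of 55 without (87.3%, interval 76.0 to 93.7%). The 5 genes with a model and no match to it were Cpr62Ba, Cpr65Au, Cpr73D, Cpr97Eb and Cpr100A, and a missing match says only that this spelling was not found in the protein.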

How the data were processed

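FLAM-seq libraries were made from 4 µg of total RNA of w1118 heads in 3 replicate samples. According to the study's methods, the authors merged the reads of the samples, mapped them with STARlong to dm6, corrected splice junctions with short reads and collapsed the reads with FLAIR, keeping reads whose 5′ end had support in the Eukaryotic Promoter Database and isoforms with a minimum of full-length reads. Genes without such a promoter would have been lost at that step. The submitters' processing notes also name featureCounts. The deposited table holds exon start and end coordinates (unit: other), with no abundance and no depth. The members and gene lists were chosen with earlier results of these data known.

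Models were joined to Ensembl release 115 by gene identifier, and a model with 1 exon was given its gene's strand. Coding parts came from annotated transcripts with identical introns. Motifs were read from the RefSeq genome, and proteins were translated from annotated coding sequences. Every Cpr gene with a model is named, and of each other list up to 6 genes with a model. For chitin synthesis, assembly and turnover all genes with a model are named. Alternatives covered the gene assignment, the denominator, the cluster gap, the motif windows, the limit on coding nt, the models compared and the RR pattern. Of the listed symbols, Knkl, Knkl2, straw, MCO1, Dat and nos were not matched and were not used. The splicing difference between the Cpr62Bb models is not reported here. Measures were tested on simulated transcripts in random sequence of C and G alone, with motifs planted at known places. Such sequence holds no unplanted motif, so false matches were not tested. Python 3.11.15, NumPy 2.4.6, SciPy 1.17.1, edlib 1.3.9.post1 and matplotlib 3.10.9 were used.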

Additional observations from a re-analysis of the deposited data

How the results depend on the processing

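Of 18 alternative values, 16 stayed within the range set for their result, which was a counting interval for shares and medians. Some of them had little or no room to move. No Cpr model had a single exon, so the recorded strand of such models could not matter. All 16 5′ ends stood at or 1 nt from an annotated start. Only 1 gene had more than 1 model whose 3′ ends could differ. Beside models with 2 or 3 exons, the difference in median length went from -573 to -267 nt and was counted as staying. The share of Cpr genes with a model, 21.4%, was the same with overlap of exons in place of the gene identifier and 18.2% over genes with a transcript under 1000 nt, and 14 loci had a model with gaps of 10, 20 or 50 kb. With a window of 30 nt in place of 50 nt, the share of Cpr models with a poly(A) signal moved from 75% to 43.8% and that of all models from 66.9% to 54.2%, because a shorter window can only lose matches. The aspartate form of the RR core, added after the data were seen, moved the share of matching proteins from 6.67% to 66.7%. The first intron inside the coding sequence, also added then, gave 31.3% of Cpr models with at most 30 coding nt before it, in place of 50%. The share over all models with a coding intron was 12.7%, in place of 40.3% of all multi-exon models with a placed coding sequence. No paired analysis was possible because all samples were of 1 group and the authors pooled them into 1 table. The table analysed here holds no read numbers, so genes without a model cannot be told from genes with too few reads.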

Other observations

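Models of 3 other genes lay over Cpr genes without sharing their exons. A single-exon model of S-Lap7 of 2091 nt lay inside Cpr50Ca, a model of CkIIbeta2 with 2 exons and 911 nt lay inside Cpr56F on the other strand, and a model of CG30197 with 4 exons and 480 nt lay inside the intron of Cpr51A on the other strand. Of these 3 Cpr genes, only Cpr51A had a model of its own. At Cpr73D, 2 models of Ogdh on the other strand, of 3682 and 3736 nt, overlapped annotated Cpr73D exons by 88 nt at their 5′ ends. These exons belong to the annotated upstream start, for which no Cpr73D model was found.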
